A study of Mus musculus with 6 samples.

Results

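The 37 genes described here are type I interferon-stimulated genes, taken as a list of gene symbols and matched to the 54446 genes of the count table through their Ensembl gene IDs. All 37 were present. The rule that lists them uses no measured value, but the list was chosen with earlier results of these data known. RNA was sequenced from bone marrow-derived macrophages (BMDMs) of male BALB/c mice of 6 to 8 weeks, differentiated for 7 days in medium with 20% L929-conditioned medium. Cells were left unpolarized (M0), polarized with IFN-γ at 20 ng/mL and LPS at 50 ng/mL (M1), or polarized with IL4 at 20 ng/mL (M2), the last 2 for 24 h. Each state was studied in cells given DMSO (control) and in cells given regorafenib, a multikinase inhibitor used in cancer treatment, at 1 µM, 1 h before polarization. The time of treatment in M0 is not given in the sources used here. There was 1 library per condition, 6 in all, so no difference between 2 libraries has a replicate check, and how many mice stood behind a library is not given in the sources used here.

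Type I interferons (IFN-α and IFN-β) bind a receptor that activates the kinases Jak1 and Tyk2, and a complex of transcription factors that includes Stat2 and Irf9 then assembles and switches on a large set of antiviral genes through a DNA element called the interferon-stimulated response element (ISRE). IFN-γ uses a separate receptor and acts mainly through gamma-activated sites (GAS), yet many of the same genes respond to both. Macrophages in culture carry a resting level of these transcripts, set by small amounts of interferon, and LPS raises them through IFN-β induced by the LPS receptor.

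Values are CPM, counts brought to a common library size, after scaling by the trimmed mean of M-values (TMM), and differences are log2 ratios with a 95% interval that covers counting error only. A gene is said to have risen or fallen where it differed at least 2-fold and had 10 counts or more in one of the libraries compared. Library totals ran from 25359309 to 34898342 counts, and the lowest member was Ifi205 with 1 count in M2 with regorafenib. The label of the cells was checked against 12 macrophage markers, of which 11 or 12 had 10 counts or more in each library. Their summed level was 31200 and 49050 CPM in M0 without and with regorafenib, 31860 and 34320 CPM in M1, and 22840 and 34290 CPM in M2. The 9 lymphocyte and NK cell markers summed to at most 0.698 CPM in any library, with Cd3e, Cd8a, Ms4a1 and Ncr1 at 0 counts in all 6. Siglech, which marks the plasmacytoid dendritic cells that make much IFN-α, had 0 counts in all 6 libraries, and Mpo, a gene of myeloid precursors and neutrophils, had between 2064 and 5124 counts. Neutrophil markers summed to between 84.8 and 158 CPM, dendritic cell markers to between 10.8 and 341 CPM, and fibroblast markers to between 9.83 and 31.7 CPM. In the controls, the M1 gene Nos2 had 39 counts in M0 and 410649 in M1, and the M2 gene Retnla had 0 counts in M0 and 941 in M2. In bulk RNA, fewer cells of a type and less RNA per cell cannot be told apart.

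Promoters of the members that the results below turn on are shown first, because the ISRE is the element through which these genes are known to be driven. They are the 200 bases before the transcription start in RefSeq on GRCm38.p6, written 5′ to 3′ on the strand of the gene, with matches to the ISRE core (TTTC, any 2 bases, TTTC) on either strand in capitals. The assembly is of C57BL/6J, and the cells were of BALB/c. The Isg15 window lies at chr4:156200819-156201018 on the minus strand, that of Rsad2 at chr12:26456453-26456652 on the minus strand, and those of Ifit1, Ifit3 and Ifit3b on the plus strand at chr19:34640689-34640888, chr19:34583329-34583528 and chr19:34607757-34607956.
Isg15: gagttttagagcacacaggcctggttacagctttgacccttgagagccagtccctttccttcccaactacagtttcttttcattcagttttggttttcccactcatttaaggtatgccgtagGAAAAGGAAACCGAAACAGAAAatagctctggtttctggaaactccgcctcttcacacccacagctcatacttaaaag
Rsad2: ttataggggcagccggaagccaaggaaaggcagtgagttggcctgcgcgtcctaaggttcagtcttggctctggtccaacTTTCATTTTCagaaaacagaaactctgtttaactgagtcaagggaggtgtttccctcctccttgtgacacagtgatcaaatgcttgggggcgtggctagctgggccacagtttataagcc
Ifit1: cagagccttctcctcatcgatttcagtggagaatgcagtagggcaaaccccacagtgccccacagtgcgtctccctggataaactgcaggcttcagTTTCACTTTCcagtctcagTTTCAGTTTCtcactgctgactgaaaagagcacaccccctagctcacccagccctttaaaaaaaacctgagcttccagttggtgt
Ifit3: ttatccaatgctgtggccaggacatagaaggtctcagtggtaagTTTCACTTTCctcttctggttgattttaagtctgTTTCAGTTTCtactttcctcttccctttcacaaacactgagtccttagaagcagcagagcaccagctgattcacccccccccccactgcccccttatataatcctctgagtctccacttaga
Ifit3b: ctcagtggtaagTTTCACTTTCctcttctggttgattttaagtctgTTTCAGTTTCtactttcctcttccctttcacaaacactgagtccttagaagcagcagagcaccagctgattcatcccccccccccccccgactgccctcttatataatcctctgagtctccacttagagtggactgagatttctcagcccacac

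Isg15 held 3 overlapping matches, all on the opposite strand, which is why its capitals run together. Ifit1, Ifit3 and Ifit3b each held 2 matches, and Rsad2 held 1. The windows of Ifit3 and Ifit3b share an unbroken run of 119 bases that contains both matches, so these genes resemble each other in the promoter as well as in the transcript. Across the members, 26 of 37 had a RefSeq promoter of 300 bases (250 before the start and 50 after), with 31 windows between them. The ISRE core was present in 16 of these 31 windows (51.6%), against 3.44% of 32851 promoters of the same length. The GAS core (TTC, any 3 bases, GAA), also searched on both strands, was present in 6 windows (19.4%), against 8.30% of all promoters, and 3 member windows held both motifs. These are letter matches and not measured binding.

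In M0, every one of the 37 members was lower with regorafenib than in the control. Of them, 26 fell at least 2-fold, beside 10.9% of the 13964 genes tested that fell and 9.47% that rose. The member median log2 ratio was -1.53, or 0.347 of the control level, while the median over all genes tested was 0.005. The counting interval lay below 0 for 36 members and above it for none, beside 35.9% and 34.8% of all genes, and Ifi205 with 16 and 8 counts was the exception. Together the members took 0.380% of all counts in the M0 control and 0.157% in M0 with regorafenib. Markers and reference genes moved in the same pair of libraries. Of the 12 macrophage markers, 7 were higher and 5 lower with regorafenib, with 1 risen (Mertk, 1.59) and 2 fallen (Cd14, -1.04, and Fcgr1, -1.48). All 5 fibroblast markers tested were higher, and 3 rose, with summed levels of 10.3 and 22.2 CPM without and with regorafenib. Neutrophil markers summed to 84.8 and 158 CPM, with Mpo at 0.95, and dendritic cell markers to 10.8 and 14.2 CPM, with Zbtb46 fallen from 14 to 5 counts. Of the lymphocyte markers Cd4 rose, from 4 to 22 counts. Of 12 reference genes the median was -0.25, with Actb, Gapdh and Pgk1 at -1.26, -1.25 and -1.33. Their part in the result was not tested.

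**Figure D1:**
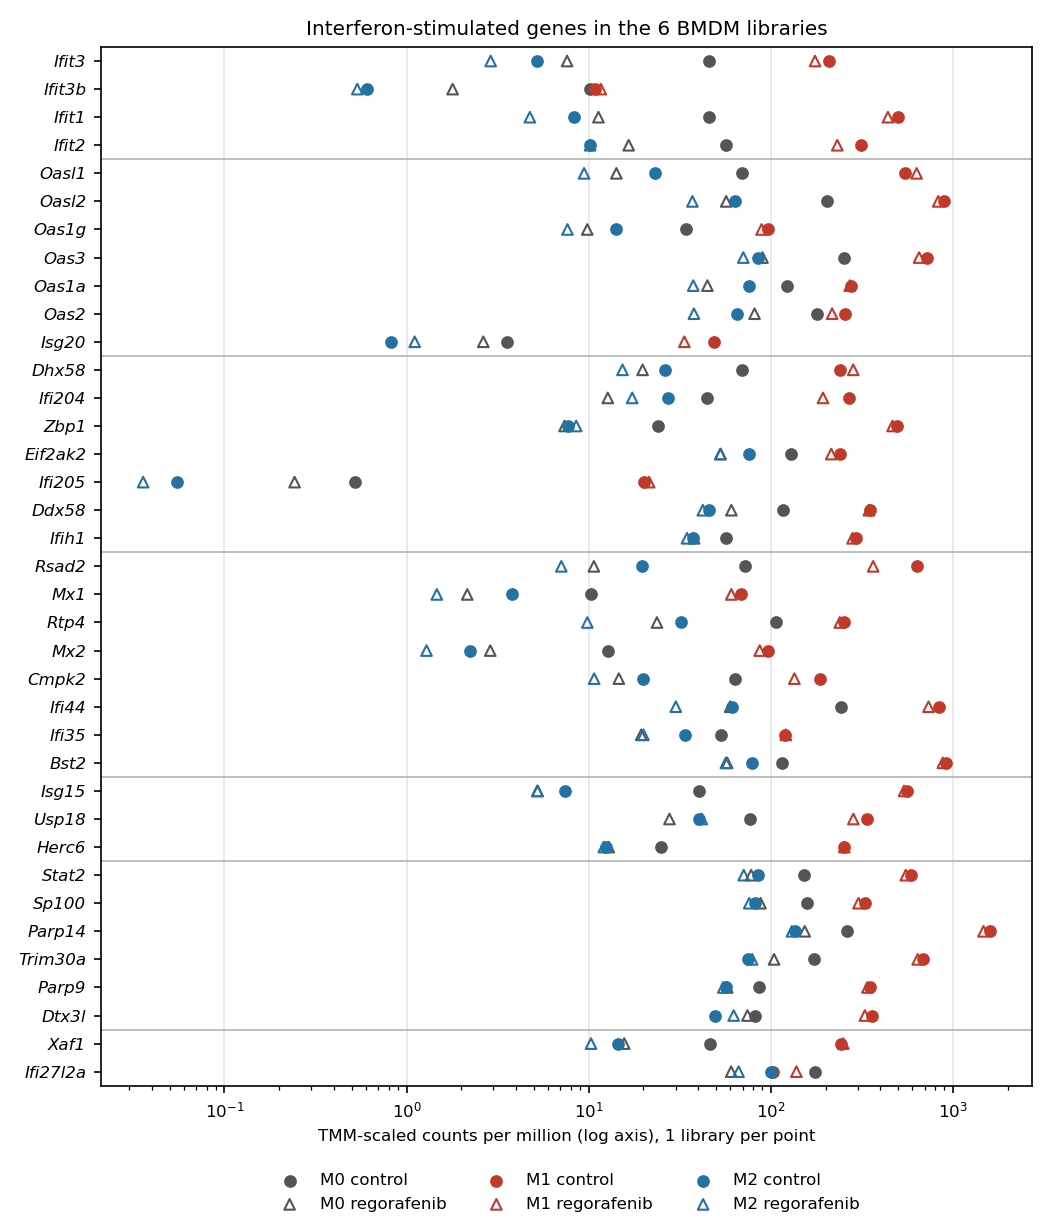
TMM-scaled CPM of the 37 interferon-stimulated genes on a log axis, 1 point per library, with filled circles for controls, open triangles for regorafenib, and grey, red and blue for M0, M1 and M2; genes are grouped by role and sorted within a role by the M0 ratio. In M0 the open triangle lies left of the filled circle for all 37 genes, whereas in M1 the pairs nearly coincide; Ifi205 in M2 rests on 2 and 1 counts.

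The IFIT genes encode proteins that bind foreign RNA ends and block their translation, and all 4 members fell in M0. Ifit3 stood at 45.7 CPM in the M0 control and 7.61 CPM in M0 with regorafenib, at 209 and 175 CPM in M1, and at 5.20 and 2.90 CPM in M2. Its regorafenib ratio was therefore -2.59 (interval -2.79 to -2.39) in M0, -0.25 (-0.31 to -0.20) in M1 and -0.85 (-1.24 to -0.46) in M2. Ifit1 had 46.0 and 11.3 CPM in M0, 501 and 440.3 CPM in M1, and 8.35 and 4.75 CPM in M2, with ratios of -2.02, -0.19 and -0.81. The drop was thus steep in M0, slight in M1 and between these in M2 for both genes. Ifit2 followed in M0 with a ratio of -1.77, but its M2 libraries were level, at 10.2 CPM in each. Ifit3b, the near copy of Ifit3, had a ratio of -2.51 in M0, and its 22 and 15 counts in M2 gave -0.17 with an interval from -1.22 to 0.84. Of the 100-base words of Ifit3, 31.7% also occur in Ifit3b, so the counts of both genes rest on the reads that tell them apart.

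The OAS genes encode enzymes that, on meeting double-stranded RNA, make oligoadenylates that activate an RNA-degrading nuclease, and the related OASL proteins modulate RNA sensing and its transcriptional outcome. All 6 fell in M0, with ratios between -2.29 for Oasl1 and -1.14 for Oas2. Oasl1 went from 69.5 to 14.2 CPM in M0 and from 23.3 to 9.44 CPM in M2, but stood at 549 and 633 CPM in M1. It was thus lower with regorafenib in M0 and M2 and higher by 0.21 (interval 0.17 to 0.24) in M1. Oas1a fell in M2 as well as in M0, from 123 to 44.9 CPM in M0 and from 76.1 to 37.5 CPM in M2, and stood at 277 and 272 CPM in M1. Of its 100-base words, 40.9% occur also in Oas1g, whose ratios were -1.81, -0.12 and -0.88 in M0, M1 and M2. The exonuclease gene Isg20, placed with this group, stayed under the 2-fold rule in every state. Its 109 and 87 counts in M0 gave -0.43, its 1261 and 808 counts in M1 gave -0.54, and its 30 and 31 counts in M2 gave 0.43 with an interval from -0.34 to 1.21.

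Among the 7 sensors of RNA and DNA, 5 fell in M0. Dhx58, which encodes a RIG-I-like receptor that tunes the other receptors of its family, had 69.3 and 19.8 CPM in M0, 239 and 284 CPM in M1, and 26.4 and 15.3 CPM in M2. Its ratio was -1.81 in M0 and -0.78 in M2, and in M1 it was higher with regorafenib, at 0.25 (interval 0.20 to 0.30). Zbp1, the sensor of left-handed nucleic acids that can start necroptosis, had 24.0 and 7.37 CPM in M0, 493 and 467 CPM in M1, and 7.70 and 8.54 CPM in M2. It fell in M0, and its M2 interval ran from -0.10 to 0.40. Eif2ak2, the kinase that halts translation on double-stranded RNA, had ratios of -1.28, -0.17 and -0.52 in M0, M1 and M2. For the DNA-sensing family genes Ifi204 and Ifi205 the M0 ratios were -1.80 and -1.10, and Ifi205 could not be compared in M2, where it had 2 and 1 counts. Ddx58 and Ifih1, which encode the RNA receptors RIG-I and its relative, were lower by less than 2-fold in M0, at -0.94 and -0.57. Of their 100-base words, 15.0% of Ifi205 and 10.7% of Ifi204 recur in another annotated gene, mostly Ifi211.

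Direct antiviral effectors were the group with the lowest median after the IFIT genes, at -2.14, and 7 of 8 fell in M0. Rsad2 encodes viperin, which makes a chain-terminating nucleotide. It stood at 72.6 and 10.7 CPM in M0, 636 and 365 CPM in M1, and 19.5 and 7.08 CPM in M2. Regorafenib samples were lower in all 3 states, by -2.77, -0.80 and -1.46 on the log2 scale, and the M1 value was the lowest of any member in M1. Cmpk2, its neighbour on chromosome 12 and a mitochondrial nucleotide kinase, had ratios of -2.13, -0.48 and -0.89. Rtp4, which encodes an interferon-induced receptor chaperone, had 107 and 23.7 CPM in M0, 251 and 239 CPM in M1, and 32.2 and 9.83 CPM in M2, and its M2 ratio of -1.71 was the lowest of any member there. Mx1 and Mx2 encode dynamin-like GTPases that trap viral particles, and many inbred mouse strains carry a defective Mx1. They had M0 ratios of -2.25 and -2.15, M1 ratios of -0.17 and -0.15, and M2 ratios of -1.37 and -0.79. Ifi44 fell in M0 and M2, at -2.03 and -1.02, and Ifi35 fell in M0, at -1.45. Bst2 encodes tetherin, which holds budding virus at the cell surface. Its 3523 and 1901 counts in M0 gave -0.99, just inside the 2-fold limit. Of the 100-base words of Rtp4, 9.28% recur in an annotated overlapping gene on the same strand, and 16.8% of the exon bases of Ifi35 overlap a gene on the other strand.

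Isg15, the ubiquitin-like modifier and the member with the lowest ratio of all, is encoded at chr4:156199424-156200818 (ENSMUSG00000035692.6). It had 40.5 CPM in the M0 control and 5.25 CPM in M0 with regorafenib, 562 and 540.2 CPM in M1, and 7.45 and 5.22 CPM in M2. The M0 control thus stood 7.72-fold above M0 with regorafenib, a ratio of -2.95 (interval -3.19 to -2.72), and the M1 libraries were nearly level at -0.06. Usp18, the protease that removes Isg15 from proteins and dampens receptor signalling, fell in M0 at -1.47 and stood at 0.06 in M2. Herc6, the mouse ligase that attaches Isg15, had -0.95, 0.01 and -0.04 in M0, M1 and M2. In the M0 pair the modifier thus fell more than its protease, and the ligase stayed just inside the 2-fold limit.

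The 6 genes of transcription, signalling and feedback had the median nearest to 0 of the role groups in M0, at -0.74, and none of them fell 2-fold in any state. Stat2, a subunit of the interferon-activated complex, had 152 and 78.1 CPM in M0, 592 and 552 CPM in M1, and 84.9 and 71.1 CPM in M2. Its M0 ratio was -0.96, the lowest of the 6, with Sp100 at -0.85, Parp14 at -0.76, Trim30a at -0.72, Parp9 at -0.57 and Dtx3l at -0.14. Dtx3l and Parp9 encode a ligase and its partner that act together on interferon signalling, and they lie head to head on chromosome 16 with overlapping ends. For Dtx3l the control and regorafenib libraries of M0 gave 2515 and 2456 counts, those of M1 9295 and 7927, and those of M2 1810 and 1751. After scaling it was lower with regorafenib in M0 and M1, at -0.14 and -0.13, and higher in M2, at 0.34. In 8.0% of its exon bases it overlaps Parp9 on the other strand, and which strand setting was used for counting is not stated.

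Of the cell death genes, Xaf1 fell in M0 from 46.2 to 15.7 CPM. Ifi27l2a, a gene of a family of small membrane proteins and the one with the highest level per length of all members in the M0 control (1321 TPM, transcript counts scaled by length), went from 175 to 60.6 CPM in M0. It was the 1 member not highest in M1 among the controls. In M1 it had 103 and 138 CPM and was higher with regorafenib by 0.43 (interval 0.35 to 0.50). In M2 it had 100.2 and 66.6 CPM, a ratio of -0.59.

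**Figure D2:**
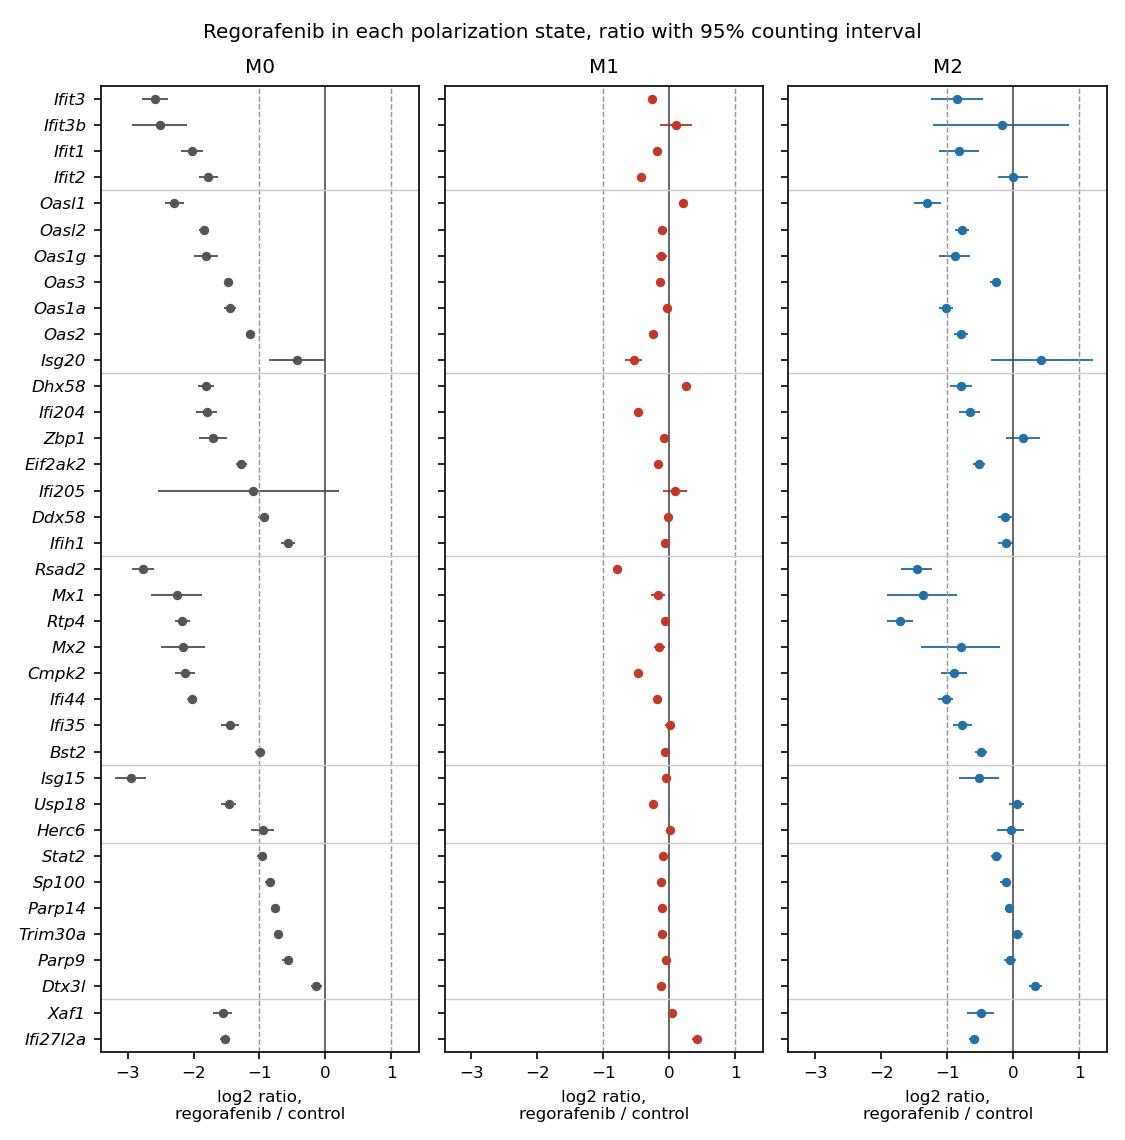
Log2 ratio of regorafenib over control for each member in M0, M1 and M2, with 95% counting intervals as bars, 0 as a solid line and 2-fold as dashed lines. In M0, 26 points lie beyond the left dashed line, in M1 none do, and in M2 6 do; Ifi205 is not drawn in M2.

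In M1, 29 members were lower and 8 higher with regorafenib (27 and 10 when scaled by total counts, where Oas1a and Ddx58 turn), and none reached 2-fold, beside 3.46% of 13440 genes that fell and 1.76% that rose. The member median was -0.11, and the median of all genes was -0.02. Counting intervals were narrow at this depth, and 27 members lay below 0 and 3 above it, against 23.5% and 17.6% of all genes. The 3 above 0 were Oasl1, Dhx58 and Ifi27l2a. The members took 1.17% of counts in the M1 control and 1.11% with regorafenib. Some markers moved in the M1 pair. Of 6 polarization markers tested 1 rose and 2 fell, and the list summed to 18370 and 12620 CPM without and with regorafenib. Of 12 macrophage markers 2 fell and none rose. Among other markers tested, 1 of 4 dendritic cell markers rose, and 1 of 3 neutrophil and 1 of 4 fibroblast markers fell. The 12 reference genes had a median of -0.08, and none reached 2-fold. What part these had in the result was not tested.

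In M2, 36 members could be compared, and 30 of them were lower with regorafenib, or 27 when scaled by total counts, where Herc6, Parp9 and Parp14 turn. Oas1a, Oasl1, Mx1, Rsad2, Ifi44 and Rtp4 fell, 6 of 36, beside 5.07% of 13813 genes that fell and 6.15% that rose. No member rose. The count was 17 at a 1.5-fold limit and 3 with 1 CPM added to both values, where Oas1a, Mx1 and Ifi44 came to just under 2-fold. Markers moved in this pair of libraries too. Both dendritic cell markers tested rose, Itgax (1.08) and Zbtb46 (2.36), and the list summed to 161 and 341 CPM. Of 4 neutrophil markers tested 2 rose, S100a9 from 0 to 11 counts and Cxcr2 from 6 to 18, and the list summed to 89.0 and 133 CPM. Of the fibroblast markers Pdgfrb rose (1.10), and the list summed to 9.83 and 19.2 CPM. Of 12 macrophage markers 2 rose and 1 fell, and of 6 polarization markers tested 2 rose and 2 fell, between -4.04 and 2.22. Of 12 reference genes 8 were lower and 4 higher, with a median of -0.31, and none reached 2-fold. Their part in the result was not tested. The member median was -0.52 and that of all genes -0.03. Counting intervals lay below 0 for 25 members and above 0 for 1, Dtx3l, beside 34.1% and 28.0% of all genes. All 6 genes that fell in M2 had also fallen in M0, and 2.84% of the 13446 genes tested in both states fell in both. Being lower in all 3 states was true of 23 of 36 members and of 19.0% of genes.

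**Figure D3:**
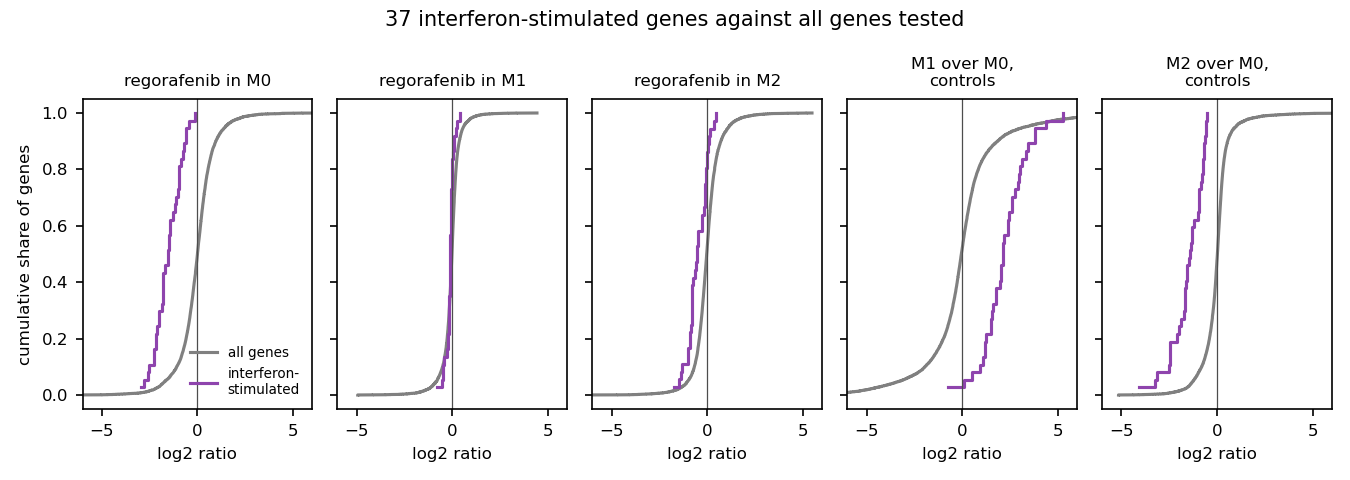
Cumulative share of genes against the log2 ratio for the members (purple) and all genes tested (grey) in 5 comparisons, with the axis drawn from -6 to 6. For regorafenib the members' curve is displaced to the left most in M0 (median -1.53), little in M2 (-0.52) and hardly in M1 (-0.11).

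Whether the response differed between states was measured as the difference of the log2 ratios, which use no library in common. The M0 ratio was below the M1 ratio beyond counting error in 34 of 37 members, beside 33.0% of 12752 genes, with a median difference of -1.42. The exceptions were Isg20, Ifi205 and Dtx3l. It was below the M2 ratio in 36 of 36 members, beside 23.3% of 13446 genes, with a median difference of -0.93. The largest gaps to M2 were those of Isg15 (-2.44), Ifit3b (-2.34) and Zbp1 (-1.85). The M2 ratio lay below the M1 ratio in 23 of 36 members and above it in 5, beside 30.0% and 27.8% of genes. Those 5 were Ifit2, Isg20, Usp18, Dtx3l and Trim30a. These intervals cover counting error only, and the spread between cultures of a state is unknown.

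Across the 36 members, the M0 and M2 ratios correlated with Pearson's r of 0.69 and Spearman's rho of 0.71, and across all 13446 genes tested r was 0.68 and rho 0.67. Between M0 and M1 r was 0.12 across the members and 0.003 across all genes. Members are not independent of each other, and these values are descriptions.

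**Figure D4:**
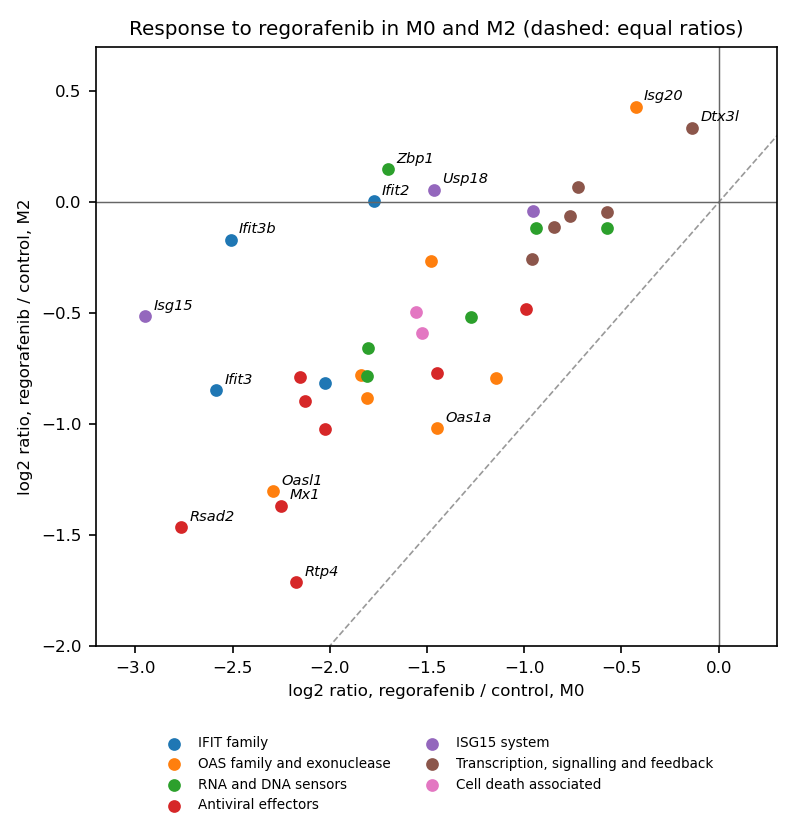
Log2 ratio of regorafenib over control in M2 against that in M0 for 36 members, 1 point per gene, colored by role, with equal ratios as a dashed line. All 36 points lie above the dashed line, and Rtp4, Rsad2, Mx1 and Oasl1 are lowest in M2.

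Polarization itself moved the members in opposite directions. In the control libraries, 36 of 37 were highest in M1 and lowest in M2, with M0 between, an order that 20.8% of 14505 genes followed. Ifi27l2a was the exception. Over M0, 33 members rose in M1 and none fell, beside 17.4% of 14168 genes that rose and 19.7% that fell, with a median of 2.13. Ifi205 (5.28) and Zbp1 (4.36) rose most. Ifit3b at 0.09, Oas2 at 0.51 and Eif2ak2 at 0.91 stayed under 2-fold, and Ifi27l2a was at -0.76. In M2, all 37 members were lower than in M0 and 24 fell, beside 7.61% of 13830 genes that fell and 4.69% that rose, with a median of -1.44. Ifit3b (-4.08), Ifi205 (-3.25, from 16 to 2 counts) and Ifit3 (-3.13) were lowest, and in the signalling group 1 of 6 fell, Trim30a. When libraries are scaled by their total counts, the median of all genes in M1 over M0 shifts by -0.441. There 29 members rise and 1, Ifi27l2a, falls, and Ifit3b turns to -0.35. Markers moved with polarization too, and their part was not tested. In M1 over M0, 3 of 5 dendritic cell, 2 of 3 neutrophil and 2 of 4 fibroblast markers tested rose and none fell. Of 12 macrophage markers 3 rose and 3 fell, and of 12 reference genes 2 rose and none fell. In M2 over M0, 1 of 2 dendritic cell markers tested rose and 1 of 2 neutrophil markers fell. Among macrophage markers 2 rose and 3 fell there.

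With regorafenib, M1 stood further above M0. All 37 members rose, beside 16.3% of 14159 genes that rose and 21.6% that fell, and the median was 3.35. In this pair, 4 of 4 dendritic cell and 2 of 3 neutrophil markers tested rose and none fell. Of 6 fibroblast markers tested 2 rose and 3 fell, and the 1 lymphocyte marker tested fell. Of 12 macrophage markers 4 rose and 4 fell, and of 12 reference genes 2 rose and none fell. The part of these genes was not tested. Isg15 stood 103-fold higher in M1 than in M0 with regorafenib, against 13.9-fold in the controls. The gain of each gene equals its M1 ratio of regorafenib less its M0 ratio, both given above. Between M2 and M0 with regorafenib the gap was small, with a median of -0.36. Here 7 of 36 members fell and none rose, beside 5.18% of 13841 genes that fell and 4.41% that rose. In the same pair 2 of 2 dendritic cell and 2 of 4 neutrophil markers tested rose and none fell. The 1 lymphocyte marker tested fell, and of 12 macrophage markers 1 rose and 3 fell. The order M1 above M0 above M2 was followed by 32 of 37 members with regorafenib, beside 20.1% of 14380 genes, and not by Zbp1, Ifi204, Ifi35, Usp18 and Ifi27l2a.

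The M0 library with regorafenib was also set beside the M2 control. Summed over the members it had 1399 CPM against 1485 CPM, where the M0 control had 3416 CPM, M2 with regorafenib 1139 CPM, and the M1 libraries 14310 and 13130 CPM. Of the 37 members, 18 were higher and 19 lower in M0 with regorafenib than in the M2 control, with a median of -0.03. In 33 of 37 the difference was under 2-fold, and so it was in 79.1% of the 14094 genes compared, so nothing particular to the members is read from it.

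The rest of the pathway was read from lists of ligands, receptors, factors and targets. Of 20 interferon genes none reached 10 counts in any library. Ifnb1, the IFN-β gene, had 1 count in each M0 library, 4 and 2 in the M1 libraries and none in M2, and Ifng had 1 count, in the M2 control. The other 18 were at 0 in all 6 libraries, which allows up to 3 counts in each. Interferon transcripts were thus at 0 or at most 4 counts, too few to compare with and without regorafenib.

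Of 7 receptor and Janus kinase genes, Ifngr1 rose in M0 (1.08) and M2 (1.03), while Ifnar1 and Ifnar2, the receptor of type I interferon, were at -0.17 and 0.65 in M0. Among the STAT and IRF factors, Irf7 fell in M0. Irf7, the factor that amplifies interferon production and is itself interferon-stimulated, had 200.1 and 53.9 CPM in M0, 1716 and 1622 CPM in M1, and 68.8 and 45.2 CPM in M2. Its ratios of -1.89, -0.08 and -0.60 are of the size of the member medians. Irf9 was at -0.52, -0.01 and -0.49. Irf1, which responds to IFN-γ, went the other way in M0 and M2, at 0.78 and 1.64. Of 14 sensing and adaptor genes upstream of Ifnb1, 1 fell in M0, Cgas, the sensor of cytosolic DNA, with 1083 and 324 counts (-1.84), and 1 rose, Tlr9 (1.63). In M2, Tlr9 was the 1 gene of this list to pass the rule, with 14 and 100 counts (3.22). Of 8 negative regulators, Socs1 fell (-1.69) and Ptpn1 rose (1.17) in M0.

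A further 47 interferon-stimulated genes outside the 37 were listed. In M0, 41 of the 46 tested were lower with regorafenib, 14 fell and 1 rose, with a median of -0.55, where 10.9% of all genes fell and 9.47% rose. Cxcl10, a chemokine for activated T cells, fell most, from 467 to 66 counts (-2.92), and Helz2 (-1.90) and Phf11d (-1.91) fell alongside. In M1, 37 of 46 were lower and none reached 2-fold. In M2, 23 of 44 were lower, 3 fell and 2 rose, with a median of -0.05, where 5.07% of all genes fell and 6.15% rose. The median of this second list in M0 was thus nearer to 0 than that of the members, and its median in M2 was near that of all genes.

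The 20 targets of IFN-γ, among them guanylate-binding proteins that attack intracellular pathogens, were mostly lower in M0 and mostly higher in M2, though few passed the 2-fold rule. In M0, 14 of the 17 tested were lower, 3 fell and 1 rose, beside the 10.9% and 9.47% of all genes in M0, with a median of -0.59. In M2, 12 of 15 were higher with regorafenib, 2 rose and none fell, beside 6.15% and 5.07% of all genes, with a median of 0.54. Counts this small are near the shares over all genes. Ciita, the master regulator of MHC class II, rose in both, from 47 to 686 counts in M0 (3.77) and from 154 to 1144 counts in M2 (3.28). Gbp3 had -1.21 in M0 and 0.92 in M2. The member genes and these targets thus stood on opposite sides of 0 in M2, with medians of -0.52 and 0.54.

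**Figure D5:**
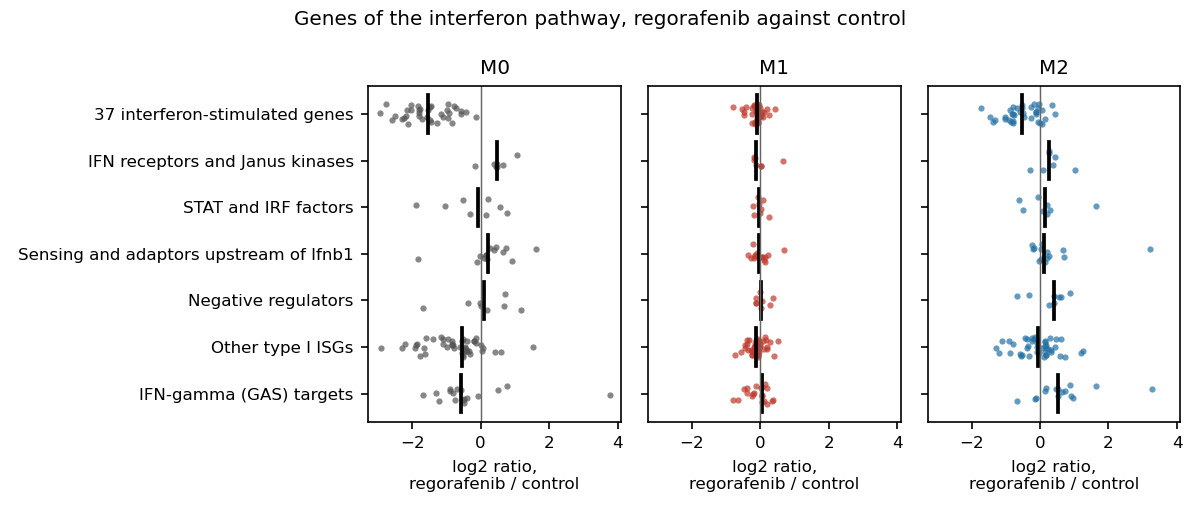
Log2 ratio of regorafenib over control in M0, M1 and M2 for the 37 members and 6 lists of pathway genes, 1 point per gene tested and a black bar at each median. The members and the other interferon-stimulated genes lie mostly left of 0 in M0 (medians -1.53 and -0.55), and the IFN-γ targets lie left of 0 in M0 and right of it in M2 (-0.59 and 0.54).

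Members with and without the ISRE core overlapped in their response. The 15 genes with a match had a median M0 ratio of -1.45, ranging from -2.95 (Isg15) to -0.57 (Ifih1), and the 11 without one had -1.56, ranging from -2.29 (Oasl1) to -0.14 (Dtx3l). Thus Oasl1, Cmpk2 and Ifi44 fell in M0 without these letters in the window, and Ifih1, Ddx58 and Stat2 held a match and did not fall 2-fold. For the 6 genes with a GAS match and the 20 without one the medians were -1.36 and -1.68.

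Over the 6 libraries, the genes outside the list whose log2(CPM + 1) followed the mean of the members most closely were Rnf213, Irf7, Slc16a3, Cpd and Phf11b, out of 8845 genes with a mean of at least 10 CPM. Their Pearson's r was between 0.997 and 0.999 over 6 libraries, and the M1 libraries lie far above the other 4 in each of these genes. Rnf213 had 406 and 176 CPM in M0, 1426 and 1153 CPM in M1, and 175 and 147 CPM in M2. Among the members with a mean of at least 10 CPM, which leaves out Ifit3b and Ifi205, Ifi27l2a followed the mean of the members least, with r of 0.60, and Oas2 was next at 0.92.

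Taken over the 3 states, regorafenib could be tested with 3 libraries against 3, with state as a block. By edgeR's quasi-likelihood test with Benjamini-Hochberg adjustment over 14123 genes, no member passed an adjusted p of 0.05, and nor did any other gene (0.0%). At an unadjusted p under 0.05 there were 15 members and 1646 genes (11.7%), and 36 of 37 members had a lower mean with regorafenib, with a median of -0.73. The lowest p was that of Rsad2, at -1.66 on the log2 scale, with an unadjusted p of 0.00502 and an adjusted p of 0.306. DESeq2's Wald test called 3 members and 297 genes, and without M1 edgeR called 7 of 36 members and 892 genes. The residual of this fit is the difference of the response between states, which was large for these genes.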

How the data were processed

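RNA sequencing of 6 BMDM libraries was analysed. The authors deposited raw counts per gene. By their methods, paired reads of 100 bases from a stranded mRNA kit were trimmed with cutadapt 2.4, and mapped to GRCm38 and counted with STAR 2.7.2a on Gencode gene definitions. This method counts reads that map to a single place, so reads that suit near-identical genes such as Ifit3 and Ifit3b equally are left out, and which strand column was taken is not stated.

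Groups were taken from the sample labels. Of 54446 gene IDs, 53229 matched Gencode names with their version and 1180 without it. The 37 members, the gene lists, the role groups, the thresholds and the alternatives were chosen with earlier results of these data known. All members may be named. Other genes are named within their list, and the 5 most alike genes were chosen by correlation over the libraries.

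Counts were scaled by TMM (edgeR 4.0.16), with factors from 0.820 to 1.12. Log2 ratios replaced a count of 0 by 0.5 and carry a 95% interval from the binomial share of each count in their sum (exact, conditional). Intervals of a difference between states combine the counting error of 4 counts. With 1 library per condition no p-value was computed between conditions. Genes with under 10 counts in both libraries were not compared. TPM used summed exon lengths. Regorafenib across the 3 states was put to the quasi-likelihood test of edgeR, the state being a block, with Benjamini-Hochberg adjustment over all genes, with DESeq2 1.42.0 as an alternative. The scripts were tested on simulated data. Intervals cover counting error only, since reads carried no molecular identifiers. Promoters and their motifs were read from RefSeq on GRCm38.p6. Other alternatives were other scalings, count minimums, folds and added values, and leaving out near-identical genes. Python 3.11.15 and R 4.3.3 were used. Some items are not reported here.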

Additional observations from a re-analysis of the deposited data

Results flagged for a closer look

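Of the 37 members, 4 had regorafenib ratios of opposite sign in different states, each beyond its counting interval, and this difference was not tested because every condition is 1 library. Oasl1 was higher with regorafenib in M1, at 0.21 on the log2 scale, and lower in M0 and M2, at -2.29 and -1.30. Dhx58 was at 0.25 in M1 and at -1.81 and -0.78 in M0 and M2. Ifi27l2a was at 0.43 in M1 and at -1.53 and -0.59 in M0 and M2. Dtx3l was at 0.34 in M2 and at -0.14 and -0.13 in M0 and M1. None of the values above 0 reached 2-fold.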

How the results depend on the processing

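In M0, the count of members that fell (26) ranged from 22 to 33 and the member median from -1.54 to -1.48 under the 7 alternatives. Calling at 1.5-fold gave 1 member that fell in M1 in place of 0, 17 in place of 6 in M2, and, between M2 and M0 with regorafenib, 14 that passed the fold (13 lower and 1 higher) in place of 7. Adding 1 CPM to both values gave 3 in M2, 4 between M2 and M0 with regorafenib, and a median of -1.32 between M2 and M0 in controls. Requiring 100 counts left 4 between M2 and M0 with regorafenib, and fewer members (32) could then be compared. Scaling by total counts lowered the median of M1 over M0 to 1.69 in controls and 2.94 with regorafenib, and without Ifit3, Ifit3b, Oas1a and Oas1g the latter was 3.62. Across the states, edgeR called 0 members and 0 genes, as it did with DESeq2's size factors, without the state block, without M0 and without M2. DESeq2's Wald test called 3 members, edgeR with no filter beyond 1 count called 4 (333 of 24938 genes), and without M1 it called 7 of 36 members and 892 genes. The cause was not tested. Apart from the fit with state as a block, which pairs the libraries of a state, no paired analysis was possible because the labels give no replicate numbers. Depth limits Ifi205, Isg20 and Ifit3b in M2, where their counting intervals include 0 or no comparison was made.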
